A study of Mus musculus with 4 samples.

Results

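A set of 10 genes used as stem and progenitor markers of thymic epithelial cells (TECs) was examined: Plet1, Cldn3, Cldn4, Ly6a, Itga6, Itgb4, Cd24a, Sox9, Pdpn and Epcam. The genes were fixed by name, matched to the symbols of the feature tables, and all 10 were found once among the 31053 gene rows of the matrices. Droplet single-cell RNA-seq had been run on 4 thymic samples, 1 library per condition, each pooled from 3 C57BL/6 mice of 6 weeks of age. WT-Control mice received control IgG, and WT-RANKL-Ab mice received a neutralizing antibody against RANKL, the ligand of the receptor RANK, at 5 mg/kg when they were 4 weeks old, 2 weeks before analysis. Mice lacking the receptor CD40 received control IgG (Cd40-/- Control) or the antibody (Cd40-/- RANKL-Ab), so that 1 library combined both losses. The samples were TECs by label, enriched by sorting for EpCAM and against CD45 and TER119. Each series of 4 values gives the WT libraries first (Control, then RANKL-Ab) and the Cd40-/- libraries after them (Control, then RANKL-Ab). Gene positions are from GENCODE M21 on GRCm38.

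In the adult thymus, TECs are divided into cortical cells (cTECs), which select developing thymocytes on self peptides, and medullary cells (mTECs), which present tissue antigens. RANK and CD40 are receptors of the TNF receptor superfamily, and their signals drive the maturation of mTECs that express Aire, the regulator of tissue antigen expression. Surface proteins such as Plet1, claudins 3 and 4, Sca-1 (the product of Ly6a), integrin α6β4, CD24 and podoplanin are used to sort immature TECs, and Sox9 is a transcription factor of many epithelial progenitors.

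The 4 libraries held 10590, 7446, 9118 and 2099 barcodes with 95607338, 48888745, 66755852 and 19175068 unique molecular identifiers (UMIs), of which 10218, 7164, 8591 and 2082 cells were kept, with median depths between 6086 and 7621.5 UMIs. Cd40 itself was at 109.9, 28.7, 5.74 and 4.75 counts per 1000000 UMIs (CPM) over all barcodes, so both Cd40-/- libraries were the lowest. Where the deleted part of Cd40 lies relative to the sequenced end is not given in the sources used here. With 1 library per condition there is no test between conditions. A level is the summed UMIs of a gene in a cell class per 1000000 UMIs of that class, and each 95% interval covers counting error only. Genes are compared across classes and libraries and never with each other, since their levels are not set on transcript length.

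Cells were placed in classes by summed marker genes, none of which is 1 of the 10. Progenitor-gated cells had at least 20 UMIs per 10000 of Dcn, Ackr4, Serpinf1, Fmod, Fst, Serping1, Bgn and Ces1d, and numbered 260, 598, 394 and 405. The cTEC-gated cells had at least 100 UMIs per 10000 of genes led by Psmb11 and Prss16, and numbered 327, 628, 771 and 372. Ccl21a-high cells had at least 50 UMIs per 10000 of Ccl21a, a chemokine of mTECs, and were divided by Mgp and Gpx3 at 10 per 10000. Those without Mgp/Gpx3 numbered 1325, 1780, 676 and 202, and those with Mgp/Gpx3 numbered 1893, 1483, 1138 and 567. Median depths were between 4832.5 and 7748 UMIs in progenitor-gated cells, between 6464 and 9719 in cTEC-gated cells, between 5851 and 7887.5 in Ccl21a-high cells without Mgp/Gpx3, and between 5583.5 and 7233 in those with them. The progenitor score lay within 0.8 to 1.25 times its cut in 191, 276, 303 and 241 cells, so the class is a range of a score and not a sharply separated type. The cTEC score lay as near to its cut in 205, 171, 167 and 55 cells, and its median in cTEC-gated cells was 185, 342, 391 and 359 per 10000.

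The progenitor gate did not hold the same mixture of cells in each library. Of the progenitor-gated cells 32.7%, 26.8%, 37.3% and 56.8% also reached the cut for Ccl21a-high cells, and the median Ccl21a score was 3.87, 1.74, 2.18 and 221 per 10000. Ccl21a summed to 7728, 8315, 8357 and 24373 CPM in the class, and the median score of Mgp and Gpx3 was 17.5, 17.3, 17.0 and 26.5 per 10000. The progenitor-gated class of Cd40-/- RANKL-Ab was thus the only one of the 4 in which most cells were Ccl21a-high. Results in this class are therefore also given for the 175, 438, 247 and 175 cells below the Ccl21a cut.

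The epithelial label was checked in the progenitor-gated class. Krt8, a keratin of simple epithelia, was at 1238, 1372, 1169 and 1323 CPM there, while Pdgfra, a receptor of fibroblasts, was at or below 1.51 CPM in every library. Over the whole fibroblast list the summed level was 109, 95.4, 95.8 and 99.3 CPM in progenitor-gated cells against 26.1, 19.5, 6.70 and 14.9 CPM in cTEC-gated cells, and several gate genes (Dcn, Fmod, Bgn) are also known from fibroblasts. Other genes of the list were present, Col3a1 at 27.3, 28.6, 28.8 and 38.3 CPM and Lum at 40.0, 27.8, 29.3 and 27.2 CPM, and the part of fibroblast RNA in this class was not tested. The endothelial list summed to between 9.66 and 31.9 CPM and the thymocyte list to between 11.3 and 21.1 CPM there. The fibroblast list of Ccl21a-high cells without Mgp/Gpx3 summed to 15.2, 36.4, 29.5 and 63.3 CPM, with Col3a1 going from 2.54 CPM in WT-Control to 32.2 CPM in Cd40-/- RANKL-Ab and Postn from 6.15 to 23.1 CPM. Of the fibroblast genes in progenitor-gated cells, Col1a1 was at 32.9 CPM in WT-Control against 7.85 CPM in Cd40-/- RANKL-Ab, and Col1a2 at 7.09 against 11.8 CPM.

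Aire, myeloid and erythroid RNA in the progenitor-gated and cTEC-gated classes was most abundant in WT-Control, and its part in the results was not tested beyond leaving cells out. Aire was at 266, 8.63, 44.4 and 0.302 CPM in progenitor-gated cells and at 373, 61.6, 80.2 and 2.73 CPM in cTEC-gated cells. At least 1 Aire UMI was found in 66 of 260 progenitor-gated WT-Control cells (25.4%) against 0.836%, 4.82% and 0.247% in the other libraries, and in 54.1%, 9.55%, 11.7% and 1.88% of cTEC-gated cells. In 43, 203, 310 and 170 strictly chosen thymocytes, which should lack Aire, it was at 78.7, 1.47, 9.48 and 2.97 CPM, at median depths of 1809, 1462, 1125 and 1551 UMIs. The myeloid and dendritic list moved the same way, with summed levels of 549.8, 8.36, 169 and 7.85 CPM in progenitor-gated cells and 636, 37.1, 109.9 and 7.19 CPM in cTEC-gated cells, led by Lyz2 and Fcer1g at 468 and 64.8 CPM in progenitor-gated WT-Control cells. The erythroid list summed to 21.8, 0.539, 15.6 and 0.302 CPM in progenitor-gated cells and to 136, 4.30, 20.8 and 0.496 CPM in cTEC-gated cells. The myeloid list of Ccl21a-high cells without Mgp/Gpx3 summed to 81.2, 27.2, 55.3 and 5.47 CPM. Main results are therefore also given without the cells that held an Aire UMI.

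The Cd40-/- Control and Cd40-/- RANKL-Ab libraries shared 210 barcodes, 10.0% of the barcodes of the latter, whereas other pairs of libraries shared between 18 and 125. Of 205 shared barcodes kept in both, 149 (72.7%) fell in the same class, with median depths of 724 UMIs in Cd40-/- Control and 23858 UMIs in Cd40-/- RANKL-Ab. The shared barcodes included 58 of 771 cTEC-gated cells of Cd40-/- Control and 20 of 405 progenitor-gated cells of Cd40-/- RANKL-Ab. Without them the counts of genes past 1.5-fold given below were the same in 7 of the 8 comparisons concerned, and the count in Ccl21a-high cells without Mgp/Gpx3 of Cd40-/- RANKL-Ab was 4 in place of 5.

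In WT-Control the 10 genes were spread over 16 cell classes in different orders, as the plot of WT-Control levels by class shows. Ly6a, Itga6, Itgb4 and Pdpn were highest in Ccl21a-high cells with Mgp/Gpx3, and the progenitor-gated class came within the first 3 for each. Ly6a was at 2158 CPM in Ccl21a-high cells with Mgp/Gpx3 and 2106 CPM in progenitor-gated cells, with overlapping intervals, and was lowest, at 120 CPM, in cycling Ccl21a-low cells. Itga6 was at 322 CPM in Ccl21a-high cells with Mgp/Gpx3, 263 CPM in those without and 192 CPM in progenitor-gated cells, and these intervals did not overlap. Itgb4 was at 102, 89.5, 89.1 and 88.2 CPM in Ccl21a-high cells with Mgp/Gpx3, cycling Ccl21a-high cells, progenitor-gated cells and Ccl21a-high cells without Mgp/Gpx3, and neighbours in this order were not separated by their intervals. Pdpn was at 85.4 CPM in Ccl21a-high cells with Mgp/Gpx3, 72.4 CPM in progenitor-gated cells and 68.6 CPM in cycling Ccl21a-high cells, again with overlapping intervals, and at 6.42 CPM in the early Aire lineage. The other genes had their highest levels outside these classes. All these levels include cells with an Aire UMI, which were 25.4% of the progenitor-gated cells. With such cells left out of the progenitor-gated class alone, its Ly6a and Pdpn levels were above those printed here for Ccl21a-high cells with Mgp/Gpx3. The lead of the latter class thus depended on which cells were summed.

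Cldn3, Cldn4 and Plet1 were highest in cells gated for peripheral-tissue-like mTEC types. Cldn3 was at 291 CPM in microfold-gated cells, 257 CPM in neuroendocrine-gated cells, 256 CPM in ciliated-gated cells and 243 CPM in tuft-gated cells. Neighbours in this order had overlapping intervals, but those of microfold-gated and tuft-gated cells were apart. The level of Cldn3 was lowest in Ccl21a-high cells with Mgp/Gpx3 at 14.4 CPM. Cldn4 was highest in microfold-gated cells at 235 CPM and lowest in cycling Ccl21a-high cells at 4.33 CPM. Plet1 stood at 218 CPM in ciliated-gated cells and at 18.7 CPM in progenitor-gated cells. Cd24a and Sox9 were led by tuft-gated cells, at 2169 and 471 CPM, and the progenitor-gated class stood at 148 and 68.8 CPM, 14th and 9th of the 16 classes. Epcam, whose product was also used to sort the cells, was between 408 CPM in ciliated-gated cells and 1335 CPM in cycling Ccl21a-high cells, and was at 612 CPM in progenitor-gated cells.

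**Figure D1:**
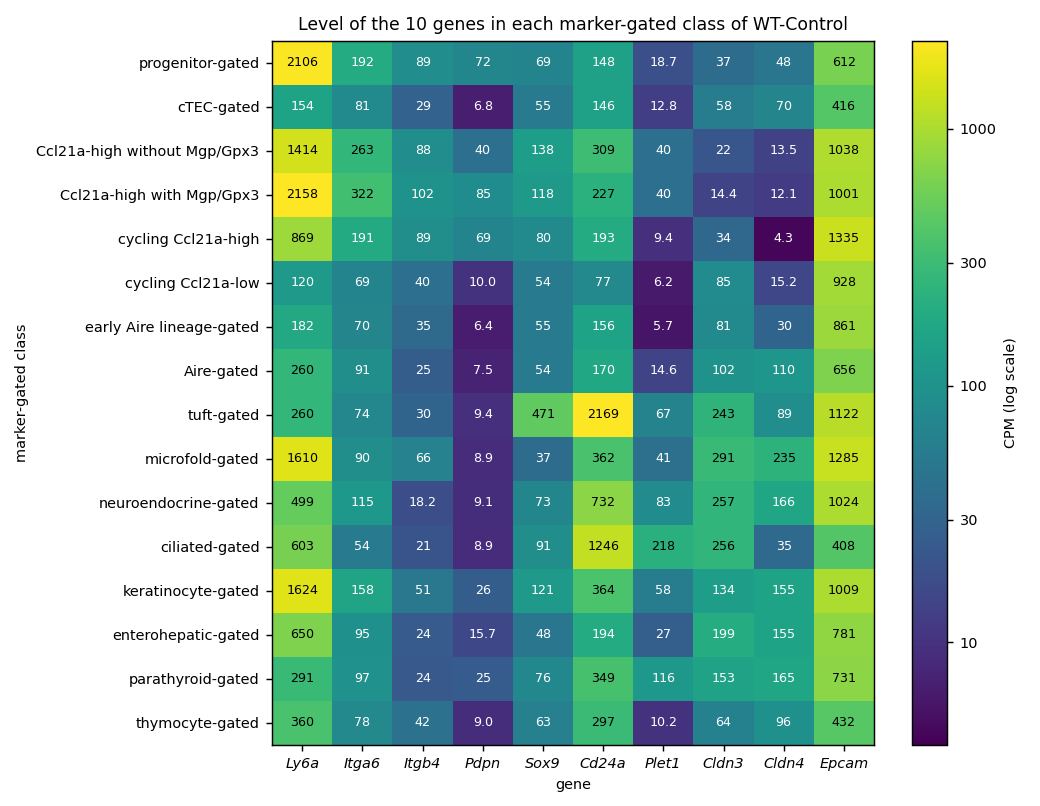
Heat map of the level of each gene (columns) in 16 marker-gated classes of WT-Control (rows), with the CPM printed in each cell and coloured on a log scale. Cells with an Aire UMI are included in every class. Ly6a, Itga6, Itgb4 and Pdpn lead in Ccl21a-high cells with Mgp/Gpx3 (2158, 322, 102 and 85.4 CPM), whereas Cd24a (2169 CPM) and Sox9 (471 CPM) lead in tuft-gated cells and Cldn3 and Cldn4 in microfold-gated cells (291 and 235 CPM).

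The libraries were compared with WT-Control class by class, and a gene was counted as past 1.5-fold when its CPM ratio reached 1.5 in either direction, where at least 20 UMIs were found over the pair of libraries. All 10 genes met this minimum in all 12 comparisons. In WT-RANKL-Ab, 6 of the 10 were past 1.5-fold in progenitor-gated cells (3 higher, 3 lower) where 39.0% of all genes were, and 6 in cTEC-gated cells (2 higher, 4 lower) where 50.7% were. In Ccl21a-high cells of WT-RANKL-Ab the counts were 2 without Mgp/Gpx3 against 25.1% of all genes, and 3 with Mgp/Gpx3 against 22.7%. In Cd40-/- Control, 6 were past 1.5-fold in progenitor-gated cells (44.6% of all genes), 6 in cTEC-gated cells (58.4%), 2 in Ccl21a-high cells without Mgp/Gpx3 (32.7%) and 4 in those with them (32.7%). The counts were not tested against these shares. Without cells that held an Aire UMI the split in WT-RANKL-Ab was 0 higher and 4 lower in progenitor-gated cells, 1 and 2 in cTEC-gated cells, 0 and 0 in Ccl21a-high cells without Mgp/Gpx3 and 0 and 3 in those with them. For Cd40-/- Control it was 2 and 3, 1 and 3, 1 and 2, and 1 and 1 in the same order. Leaving cells out can also change the share of all genes past 1.5-fold. That share was not set beside these splits, and no conclusion is drawn from their size.

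In Cd40-/- RANKL-Ab the counts were larger. In progenitor-gated cells 8 were past 1.5-fold (4 higher, 4 lower) against 38.2% of all genes, and in cTEC-gated cells 9 were (4 higher, 5 lower) against 56.9%. Among Ccl21a-high cells 5 were past 1.5-fold without Mgp/Gpx3 (1 higher, 4 lower) against 37.3%, and 5 with Mgp/Gpx3 (1 higher, 4 lower) against 31.4%. The plot of ratios to WT-Control shows that the genes did not move as 1 set, since Ly6a, Cldn3 and Cldn4 were lower and Pdpn was higher in all 4 classes. Without cells that held an Aire UMI the counts for Cd40-/- RANKL-Ab were 1 higher and 4 lower in progenitor-gated cells and 3 higher and 4 lower in cTEC-gated cells. Among progenitor-gated cells below the Ccl21a cut 4 were higher and 4 lower of 9 with enough UMIs, and with Aire-UMI cells left out as well 2 were higher and 3 lower of 8. The counts with cells left out are given without the share of all genes among the same cells.

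The median log2 ratio of the 10 genes in Cd40-/- RANKL-Ab was 0.19 in progenitor-gated cells, −0.72 in cTEC-gated cells, −0.04 in Ccl21a-high cells without Mgp/Gpx3 and −0.24 in those with them, beside 0.17, 0.29, 0.14 and 0.09 over all genes tested. All genes thus had a median above 0 in each class, which lay between −0.01 and 0.12 under TMM scaling. Ratios near 1.5 depended on this shift. With TMM scaling the split of higher against lower genes went from 4 and 5 to 2 and 6 in cTEC-gated cells and from 4 and 4 to 3 and 4 in progenitor-gated cells of Cd40-/- RANKL-Ab, and from 3 and 3 to 1 and 4 in progenitor-gated cells of WT-RANKL-Ab. It went from 2 and 4 to 1 and 4 in cTEC-gated and from 1 and 1 to 0 and 1 in Ccl21a-high cells without Mgp/Gpx3 of WT-RANKL-Ab. In Cd40-/- Control it went from 2 and 4 to 1 and 6 in cTEC-gated cells, from 1 and 1 to 1 and 2 in Ccl21a-high cells without Mgp/Gpx3 and from 1 and 3 to 0 and 3 in those with them. The share of all genes past 1.5-fold under TMM scaling was not set beside these splits.

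**Figure D2:**
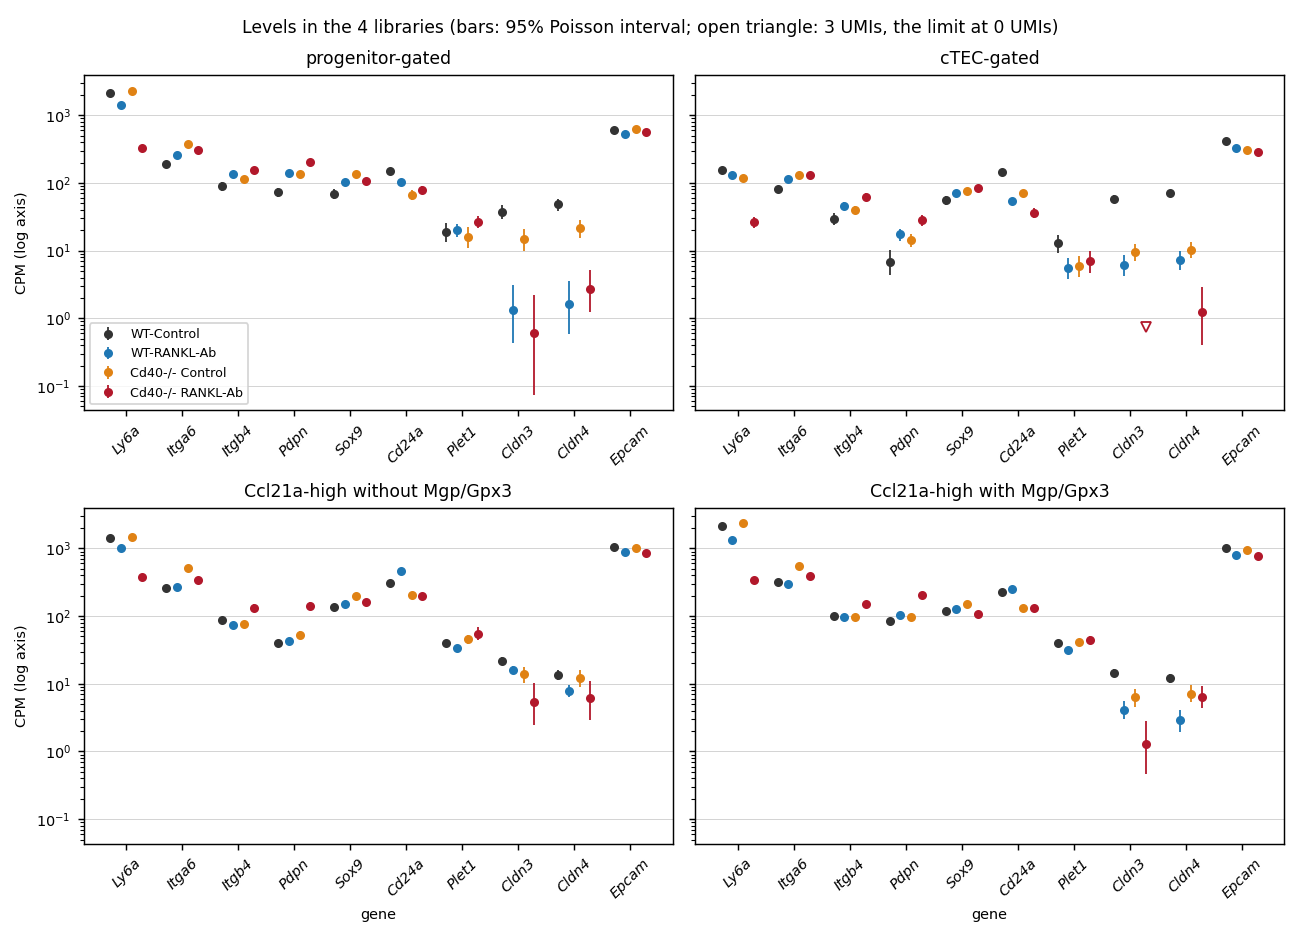
Level of each gene (CPM, log axis) in the 4 libraries (colours), 1 panel for each of the 4 compared classes, with bars for the 95% Poisson interval; the open triangle marks the 1 count of 0, drawn at the level of 3 UMIs. Ly6a is lowest in Cd40-/- RANKL-Ab in every class (26.3 to 384 CPM) and Pdpn is highest there in every class (28.3 to 205 CPM).

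**Figure D3:**
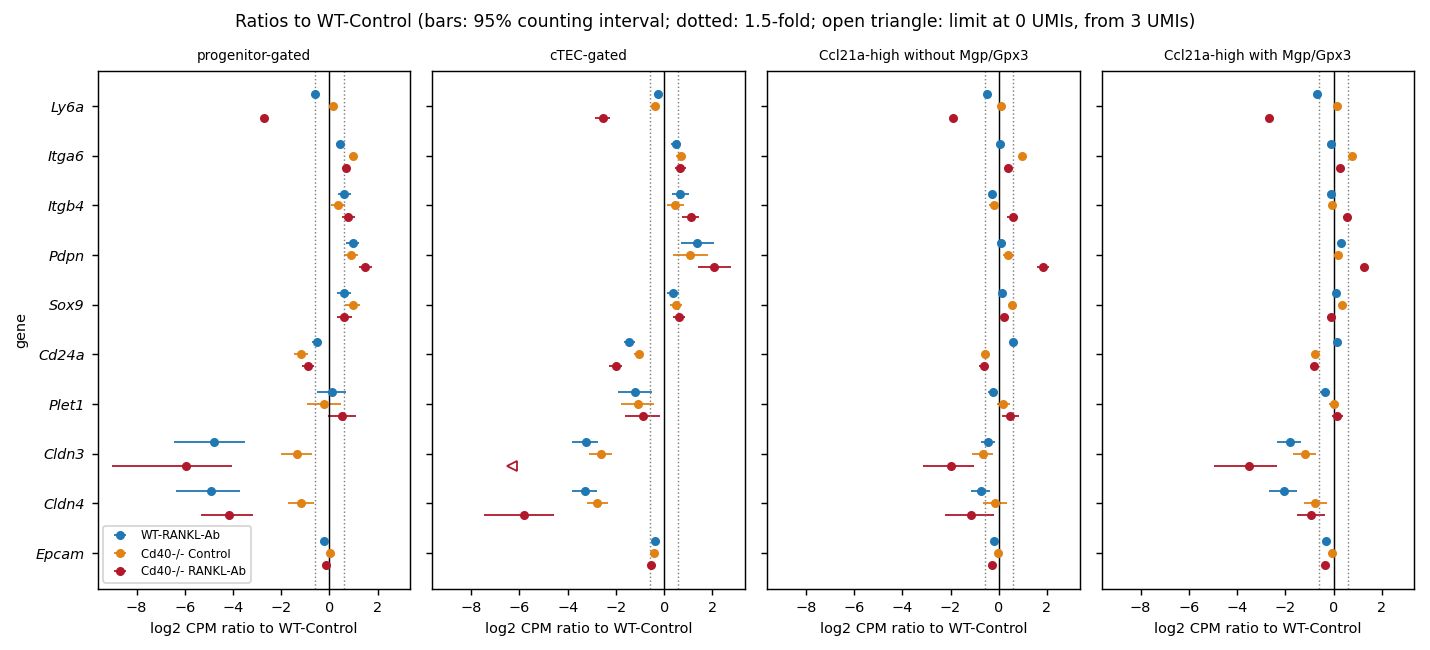
Log2 ratio of each gene to WT-Control (horizontal axis) in the other 3 libraries (colours), 1 panel per class, with bars for the 95% counting interval, dotted lines at 1.5-fold in either direction and an open triangle for the limit at a count of 0. In Cd40-/- RANKL-Ab the ratio of Ly6a lies between −2.70 and −1.88 and that of Pdpn between 1.26 and 2.05 over the 4 classes.

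Ly6a (ENSMUSG00000075602, chr15:74994877-74998031, minus strand) encodes Sca-1, a GPI-anchored protein of the Ly6 family that is known to be induced by interferons. It was at 2106, 1401, 2301 and 325 CPM in progenitor-gated cells, 154, 130.2, 119 and 26.3 CPM in cTEC-gated cells, 1414, 1011, 1486 and 384 CPM in Ccl21a-high cells without Mgp/Gpx3, and 2158, 1349, 2376 and 339 CPM in those with them. Cd40-/- RANKL-Ab was the lowest library in each class, and WT-RANKL-Ab stood between it and both controls except in cTEC-gated cells, where it was above Cd40-/- Control. In Cd40-/- RANKL-Ab the log2 ratio to WT-Control was −2.70 (interval −2.80 to −2.60) in progenitor-gated cells, a level 6.49-fold lower, and −1.88 in Ccl21a-high cells without Mgp/Gpx3, 3.68-fold lower. All 5 epithelial classes that could be compared were lower, the lowest being tuft-gated cells at 11.3 CPM from 5 UMIs against 260.5 CPM in WT-Control. Reads that match several Ly6 genes could be assigned with error, since the family has close copies.

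The antibody went with a larger difference of Ly6a in Cd40-/- mice than in WT mice. In progenitor-gated cells the log2 ratio of RANKL-Ab to control was −0.59 (−0.65 to −0.53) in WT and −2.83 (−2.92 to −2.73) in Cd40-/-, and in Ccl21a-high cells with Mgp/Gpx3 it was −0.68 (−0.71 to −0.65) and −2.81 (−2.88 to −2.73). The intervals were apart in all 4 classes, with 1 library on each side, so the difference between genotypes was not tested over mice. The lower level in progenitor-gated cells of WT-RANKL-Ab lay just past 1.5-fold and was below it with halved gate cuts, with cells below the Ccl21a cut alone, with 10 CPM added and with a denominator free of Ccl21a and mitochondrial genes. Between Cd40-/- Control and WT-Control the Ly6a ratio was between 0.772 and 1.10 in the 4 classes. Among cells with no Aire UMI the progenitor-gated level of Ly6a was 2907, 1403, 2439 and 325 CPM, among those below the Ccl21a cut it was 1834, 1292, 1646 and 256 CPM, and without the shared barcodes the log2 ratio to WT-Control was −2.66 in progenitor-gated and −2.94 in cTEC-gated cells. The share of cells with a UMI after thinning to 1000 UMIs followed the same order in progenitor-gated cells, at 66.8%, 62.5%, 67.1% and 21.2%, with unthinned shares of 82.7%, 80.3%, 80.5% and 53.8%. In thymocyte-gated cells, whose median depths were between 1474 and 4349 UMIs, the thinned share was 11.1%, 5.80%, 8.24% and 1.09%.

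Other interferon-stimulated genes were lower together with Ly6a in Cd40-/- RANKL-Ab. Of 14 such genes, 13 were past 1.5-fold lower and 0 higher in progenitor-gated cells, with a median log2 ratio of −2.15 beside 0.17 over all genes tested, of which 16.0% were past 1.5-fold lower. Of 12 with enough UMIs among progenitor-gated cells below the Ccl21a cut and without an Aire UMI, 11 were lower and 0 higher. The share of all genes among those cells was not set beside this count. In both Ccl21a-high classes 13 of 14 were lower, with medians of −2.54 and −2.40, where 1970 of 12315 and 1892 of 12973 genes were lower. In cTEC-gated cells 7 were lower and 2 higher, with a median of −0.51, where 21.8% of all genes were lower. The summed level of the list in progenitor-gated cells was 7758, 4119, 5363 and 1794 CPM in the 4 libraries. Irf7, a transcription factor of the type I interferon response, was at 167 CPM in WT-Control against 17.8 CPM in Cd40-/- RANKL-Ab, and Ifit3, an antiviral effector, was at 259 and 29.3 CPM. In Ccl21a-high cells without Mgp/Gpx3, Irf7 was at 261 and 5.47 CPM, and Rsad2, an antiviral enzyme, had 228 UMIs in WT-Control and none in Cd40-/- RANKL-Ab. In progenitor-gated cells of WT-RANKL-Ab 9 of 14 were past 1.5-fold lower and 0 higher, where 1785 of 11495 genes were lower. In both Ccl21a-high classes of that library 10 of 14 were lower, where 1585 of 13303 and 1598 of 13349 genes were. Its cTEC-gated cells had 4 lower and 2 higher (median 0.02), beside 50.7% of all genes past 1.5-fold. In Cd40-/- Control 4 were lower and 2 higher in progenitor-gated cells, where 1638 of 11083 genes were lower. Its cTEC-gated cells had 1 lower and 7 higher (median 0.63), beside 58.4% of all genes past 1.5-fold.

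Within the Ly6 family itself, 5 of 10 other members had enough UMIs in progenitor-gated cells, of which 3 were lower and 0 higher in Cd40-/- RANKL-Ab, where 16.0% of all genes were lower. Psca had 126 UMIs (63.8 CPM) in WT-Control and none in Cd40-/- RANKL-Ab, but 5.55 CPM in WT-Control among cells with no Aire UMI. Ly6d, a marker of differentiating epithelia, was at 163 CPM in WT-Control against 40.2 CPM in Cd40-/- RANKL-Ab (log2 ratio −2.02, −2.32 to −1.73), and at 109.5 against 40.3 CPM among cells with no Aire UMI. In Ccl21a-high cells 1 member was higher and 4 of 7 lower without Mgp/Gpx3, and 1 higher and 6 of 8 lower with Mgp/Gpx3. Of all genes tested, 1970 of 12315 and 1892 of 12973 were lower in these classes. In cTEC-gated cells 7 of 8 were lower, where 21.8% of all genes were. In Cd40-/- Control, where Ly6a was not past 1.5-fold, 4 of 7 were lower and 2 higher in progenitor-gated cells. The summed level of the family there was 2626 CPM against 2630 CPM in WT-Control, and 1638 of all 11083 genes tested were lower. In cTEC-gated cells of Cd40-/- Control 7 of 8 were lower, where 2951 of 12879 genes were. Cells with an Aire UMI are included in these counts.

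Itga6 (ENSMUSG00000027111, chr2:71745616-71858416, plus strand) and Itgb4 (ENSMUSG00000020758, chr11:115974709-116008412, plus strand) encode the subunits of integrin α6β4, the laminin receptor that anchors hemidesmosomes to the basement membrane. Their levels differed from WT-Control in different libraries. Itga6 was at 192, 260.1, 378 and 309 CPM in progenitor-gated cells, 81.1, 115, 133 and 129 CPM in cTEC-gated cells, 263, 271, 513 and 347 CPM in Ccl21a-high cells without Mgp/Gpx3 and 322, 299, 546 and 388 CPM in those with them. The highest level lay in Cd40-/- Control in each of the 4 classes. The ratio of Itga6 in Cd40-/- Control to WT-Control was above 1 in all 14 epithelial classes compared, between 1.29 and 2.64, with every interval above 1. With TMM factors it was below 1.5-fold in cTEC-gated cells and in Ccl21a-high cells with Mgp/Gpx3. Under the antibody in Cd40-/- mice the Itga6 ratio to Cd40-/- Control was below 1 in all 5 classes compared, between 0.676 and 0.976.

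Itgb4 was at 89.1, 137, 113 and 154 CPM in progenitor-gated cells, 29.1, 46.4, 40.0 and 62.2 CPM in cTEC-gated cells, 88.2, 73.4, 75.9 and 131 CPM in Ccl21a-high cells without Mgp/Gpx3 and 102, 95.7, 98.2 and 149 CPM in those with them. Its highest level lay in Cd40-/- RANKL-Ab in each class. In Cd40-/- RANKL-Ab its ratio to WT-Control was above 1 in all 5 classes compared, between 1.46 and 2.14. In Ccl21a-high cells without Mgp/Gpx3 the log2 ratio of Itgb4 with the antibody was −0.26 (−0.40 to −0.13) in WT and 0.78 (0.53 to 1.04) in Cd40-/-, a difference that was not tested over mice. With Aire-UMI cells left out, the log2 ratios in progenitor-gated cells of Cd40-/- RANKL-Ab were 0.44 for Itga6 and 0.50 for Itgb4, below 1.5-fold, in place of 0.68 and 0.79. Among progenitor-gated cells below the Ccl21a cut they were 0.74 and 0.65, and with both groups of cells left out 0.47 and 0.26. In the same setting Itgb4 in cTEC-gated cells was at 0.33 in place of 1.10 and Itga6 at 0.83 in place of 0.68.

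A list of 13 other genes of laminin-binding adhesion and hemidesmosomes was counted in Cd40-/- RANKL-Ab as well. Of 11 with enough UMIs in progenitor-gated cells, 8 were past 1.5-fold higher and 1 lower, with a median log2 ratio of 0.86 beside 0.17 over all genes, of which 22.2% were higher. Their summed level was 703 CPM in the WT-Control library against 1219 CPM. Without Aire-UMI cells 4 of 11 were higher and 1 lower, among cells below the Ccl21a cut 7 and 1, and with both left out 1 and 1. The count thus depended on which cells were summed. The share of all genes among the same cells was not set beside it. The counts were 9 higher and 1 lower in cTEC-gated cells (median 1.10), 7 and 0 in Ccl21a-high cells without Mgp/Gpx3 (0.67) and 6 and 0 in those with them (0.70), where 35.1%, 21.3% and 16.8% of all genes were higher. Without Aire-UMI cells they were 3 and 0 of 9, 6 and 0 of 11, and 6 and 0 of 11, again without a share of all genes. In Cd40-/- Control 8 of 11, 9 of 11, 6 of 12 and 6 of 11 were higher in progenitor-gated cells, cTEC-gated cells and Ccl21a-high cells without and with Mgp/Gpx3, and 0, 1, 2 and 0 were lower. In the same order 3308 of 11083, 4568 of 12879, 2629 of 12791 and 2754 of 13255 of all genes tested were higher. In WT-RANKL-Ab 6, 8, 0 and 1 were higher and 0, 2, 3 and 1 lower. Of all genes 2693 of 11495, 3680 of 12603, 1759 of 13303 and 1429 of 13349 were higher in that library. The counts of these libraries include cells with an Aire UMI. Dst, a plakin that links keratin filaments to integrin α6β4, was at 114 CPM in WT-Control against 242 CPM in progenitor-gated cells of Cd40-/- RANKL-Ab (log2 ratio 1.09, 0.87 to 1.31), and at 130 against 210.1 CPM among those below the Ccl21a cut and without an Aire UMI. Col17a1, a hemidesmosomal collagen, was at 9.11 and 19.0 CPM there (1.06, 0.29 to 1.91), or 9.93 and 11.9 CPM with both groups of cells left out, and in Ccl21a-high cells without Mgp/Gpx3 it was at 6.25 and 27.4 CPM (2.13, 1.54 to 2.71). Plec, the plectin gene, was at 64.1 and 152 CPM in the latter class.

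Pdpn (ENSMUSG00000028583, chr4:143267431-143299564, minus strand) encodes podoplanin, a mucin-type glycoprotein used to mark a progenitor-like population at the junction of cortex and medulla. It was at 72.4, 141, 134 and 202 CPM in progenitor-gated cells, 6.83, 17.4, 14.3 and 28.3 CPM in cTEC-gated cells, 40.0, 42.8, 52.7 and 142 CPM in Ccl21a-high cells without Mgp/Gpx3 and 85.4, 105, 95.9 and 205 CPM in those with them. WT-Control was the lowest library and Cd40-/- RANKL-Ab the highest in all 4 classes. The log2 ratio of Cd40-/- RANKL-Ab to WT-Control was 1.48 (1.22 to 1.75) in progenitor-gated cells, 2.05 (1.39 to 2.76) in cTEC-gated cells, 1.83 (1.58 to 2.07) in Ccl21a-high cells without Mgp/Gpx3 and 1.26 (1.14 to 1.39) in those with them. The ratio was between 2.40 and 4.14 over all 5 classes compared.

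The classes differed in which library Pdpn set apart. In progenitor-gated cells each single loss already went with a higher level, by 1.95-fold in WT-RANKL-Ab and 1.85-fold in Cd40-/- Control, whereas in Ccl21a-high cells without Mgp/Gpx3 those ratios were 1.07 and 1.32 and only the double loss was past 1.5-fold, at 3.55. In that class the log2 ratio of Pdpn with the antibody was 0.10 (−0.10 to 0.30) in WT and 1.43 (1.15 to 1.70) in Cd40-/-. In cTEC-gated cells Pdpn rested on 23 UMIs in WT-Control and 114 in Cd40-/- RANKL-Ab. Among cells with no Aire UMI the progenitor-gated levels of Pdpn were 97.6, 142, 141 and 202 CPM. The single-loss ratios of both classes were then below 1.5-fold, while in progenitor-gated cells the log2 ratio of Cd40-/- RANKL-Ab was 1.05, and that of cTEC-gated cells was 1.25. Among progenitor-gated cells below the Ccl21a cut Pdpn was at 71.9, 151, 134 and 192 CPM, and the log2 ratio of Cd40-/- RANKL-Ab was 1.42. With Aire-UMI cells left out as well it was at 107, 152, 143 and 193 CPM, and that ratio was 0.86, the lowest of these settings and still past 1.5-fold. In strict thymocytes Pdpn had a UMI in WT-RANKL-Ab alone, at 1.47 CPM. After thinning to 1000 UMIs, 7.91%, 13.1%, 11.9% and 19.5% of progenitor-gated cells held a Pdpn UMI (36.2%, 51.0%, 45.2% and 66.4% unthinned), against 0 of 99, 2 of 207, 0 of 279 and 1 of 184 thymocyte-gated cells.

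Sox9 (ENSMUSG00000000567, chr11:112782224-112787760, plus strand) was higher than WT-Control in progenitor-gated cells of the other 3 libraries, at 68.8, 105, 134 and 106 CPM. It was at 55.3, 71.6, 76.9 and 84.6 CPM in cTEC-gated cells, 138, 150.3, 198 and 159 CPM in Ccl21a-high cells without Mgp/Gpx3 and 118, 126, 151 and 109 CPM in those with them. The highest of the 4 libraries was Cd40-/- Control except in cTEC-gated cells. In progenitor-gated cells the log2 ratio to WT-Control was 0.60 (0.32 to 0.90), 0.96 (0.66 to 1.27) and 0.62 (0.33 to 0.92). Those of both antibody-treated libraries lay just above 1.5-fold. They were below it under 8 of 13 alternatives for WT-RANKL-Ab and 6 of 14 for Cd40-/- RANKL-Ab, among them without cells that held an Aire UMI. With the antibody the log2 ratio of Sox9 in progenitor-gated cells was 0.60 in WT and −0.34 (−0.57 to −0.11) in Cd40-/-. In tuft-gated cells, where Sox9 is highest, it was at 471, 599, 725 and 644 CPM.

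Cd24a (ENSMUSG00000047139, chr10:43578284-43584265, plus strand) encodes CD24, a GPI-anchored sialoglycoprotein that is also abundant on immature thymocytes. It was at 148, 104, 66.1 and 79.4 CPM in progenitor-gated cells, 146, 54.1, 70.4 and 36.5 CPM in cTEC-gated cells, 309, 464, 207 and 199 CPM in Ccl21a-high cells without Mgp/Gpx3 and 227, 254, 133 and 131 CPM in those with them. Both Cd40-/- libraries were below WT-Control in each of the 4 classes, and WT-RANKL-Ab was below it in progenitor-gated and cTEC-gated cells and above it in both Ccl21a-high classes. The log2 ratio of Cd40-/- RANKL-Ab to WT-Control was −0.90 (−1.15 to −0.66) in progenitor-gated and −2.01 (−2.28 to −1.74) in cTEC-gated cells. In progenitor-gated cells it stayed past 1.5-fold under all 14 alternatives, between −2.53 and −0.65. The WT-RANKL-Ab ratio there, −0.52, stayed below 1.5-fold under 8 of 13 alternatives. It was past 1.5-fold without Aire-UMI cells, below the Ccl21a cut and with both left out. In cTEC-gated cells without an Aire UMI the levels of Cd24a were 62.2, 49.5, 49.9 and 36.9 CPM and that ratio was −0.75, so that Cd40-/- RANKL-Ab alone was past 1.5-fold. With gate cuts multiplied by 2 the cTEC-gated ratio was −0.37, below 1.5-fold. The Cd24a ratio of −0.64 (−0.80 to −0.47) in Ccl21a-high cells without Mgp/Gpx3 was −0.57 without the shared barcodes, below 1.5-fold. The gene was at 339, 446, 420 and 474 CPM in strict thymocytes and between 2100.3 and 2536 CPM in tuft-gated cells, so thymocyte RNA can carry it. Reads of Cd24a are uncertain because processed copies of the gene exist in the mouse genome.

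Plet1 (ENSMUSG00000032068, chr9:50494525-50505482, plus strand), a GPI-anchored surface protein of early TEC progenitors, rested on few UMIs in the progenitor-gated class. It had 37, 74, 34 and 88 UMIs there, at 18.7, 19.9, 16.1 and 26.6 CPM, and the log2 ratio of Cd40-/- RANKL-Ab to WT-Control was 0.50 (−0.07 to 1.10). In the whole class no difference from WT-Control was detectable at this depth. Below the Ccl21a cut the progenitor-gated cells held 18, 13, 7 and 1 Plet1 UMIs, at 12.4, 4.85, 5.36 and 0.699 CPM. There WT-RANKL-Ab and Cd40-/- Control were past 1.5-fold lower than WT-Control. The pair with Cd40-/- RANKL-Ab fell short of the minimum of 20 UMIs. In cTEC-gated cells Plet1 was at 12.8, 5.55, 5.97 and 6.94 CPM, in Ccl21a-high cells without Mgp/Gpx3 at 39.6, 33.9, 45.2 and 55.3 CPM and in those with them at 40.0, 31.4, 40.8 and 44.5 CPM. The lower cTEC-gated level rested on 43, 31, 33 and 28 UMIs. With Aire-UMI cells left out it was past 1.5-fold in neither antibody-treated library. In tuft-gated cells Plet1 was at 67.0, 143, 75.1 and 151 CPM, so both antibody-treated libraries were more than 1.5-fold above both controls (log2 ratio to WT-Control 1.10, 0.88 to 1.32, and 1.18, 0.76 to 1.57).

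Cldn3 (ENSMUSG00000070473) and Cldn4 (ENSMUSG00000047501) encode claudins of tight junctions, the seals between neighbouring epithelial cells, and are used together to mark mTEC stem cells. The genes are neighbours on chromosome 5 (GRCm38), Cldn3 at chr5:134986214-134987472 on the plus strand and Cldn4 at chr5:134945119-134946934 on the minus strand, 39279 bases apart. Cldn3 was at 37.5, 1.35, 14.6 and 0.604 CPM in progenitor-gated cells and at 58.2, 6.09, 9.41 and 0 CPM in cTEC-gated cells. Cldn4 was at 48.1, 1.62, 21.2 and 2.72 CPM and at 70.1, 7.16, 10.3 and 1.24 CPM in the same classes. WT-Control was the highest library for both genes in both classes, and Cd40-/- Control was the next highest. In progenitor-gated cells of Cd40-/- RANKL-Ab there were 2 Cldn3 UMIs against 74 in WT-Control (log2 ratio −5.96, −9.03 to −4.05) and 9 Cldn4 UMIs against 95 (−4.15, −5.32 to −3.16). In cTEC-gated cells no Cldn3 UMI was found in Cd40-/- RANKL-Ab against 196 in WT-Control, and with 3 UMIs as the limit that a count of 0 allows (0.744 CPM) the level was at least 78.3-fold lower.

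In Ccl21a-high cells the claudin levels were lower to begin with and the libraries differed less. Cldn3 was at 21.7, 16.1, 13.8 and 5.47 CPM without Mgp/Gpx3 and at 14.4, 4.09, 6.32 and 1.28 CPM with them. Cldn4 was at 13.5, 7.95, 12.1 and 6.08 CPM and at 12.1, 2.88, 7.18 and 6.41 CPM. In tuft-gated cells, in contrast, Cldn3 was at 243, 343, 193 and 259.9 CPM, and the last stood to the first at a log2 ratio of 0.10 (−0.20 to 0.38), and Cldn4 was at 89.0, 74.7, 84.4 and 36.2 CPM. The difference between tuft-gated and progenitor-gated cells in this ratio was not tested over mice. The plot of Cldn3 and Cldn4 places each class of each library by both levels.

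Aire was also highest in WT-Control and next highest in Cd40-/- Control in these classes, while in tuft-gated cells it was at 61.5, 5.56, 52.9 and 0 CPM. Cells gated for Aire in WT-Control held 2931 Cldn3 and 3150 Cldn4 UMIs, at 102 and 109.7 CPM, and Aire was at 266 and 373 CPM in progenitor-gated and cTEC-gated cells of this library. Among cells with no Aire UMI the progenitor-gated levels were 23.8, 1.36, 11.9 and 0.605 CPM for Cldn3 and 15.1, 1.09, 14.5 and 2.72 CPM for Cldn4. In cTEC-gated cells they were 23.6, 3.63, 5.86 and 0 CPM for Cldn3 and 13.4, 2.02, 3.69 and 1.26 CPM for Cldn4. Both genes thus stayed more than 1.5-fold lower in both antibody-treated libraries in these classes, while Cldn4 in progenitor-gated cells of Cd40-/- Control no longer differed from WT-Control by that fold. Below the Ccl21a cut progenitor-gated cells were at 47.7, 0.373, 21.5 and 0.699 CPM for Cldn3 and 58.7, 1.86, 32.2 and 0.699 CPM for Cldn4. In strict thymocytes Cldn3 had no UMI in the WT libraries, which allows up to 18.2 CPM in WT-Control, and stood at 10.7 and 1.49 CPM in the Cd40-/- libraries. Cldn4 was at 12.1, 22.1, 16.6 and 22.3 CPM there, and the Cldn4 levels of both Ccl21a-high classes lay within or below the counting intervals of these values. Whether this Cldn4 RNA was made by the thymocytes or came from other cells was not tested. It therefore sets no background for Cldn4 in the other classes. In the wider thymocyte gate, which can hold doublets, Cldn3 was at 64.3, 13.3, 31.3 and 2.01 CPM and Cldn4 at 95.9, 32.4, 41.9 and 17.1 CPM. Both claudins were thus lower in progenitor-gated and cTEC-gated cells than in thymocyte-gated cells of the same library, in all 4 libraries. The wider gate held Aire at 424 CPM in WT-Control, so it cannot serve as a measure of free RNA. In strict thymocytes of WT-Control the counting interval of Cldn3 reached 22.3 CPM, below its level in progenitor-gated and cTEC-gated cells. Among cells with no Aire UMI those levels, 23.8 and 23.6 CPM, were near this limit. The part of RNA from other cells in the claudin levels was not tested. In Ccl21a-high cells with Mgp/Gpx3 of Cd40-/- RANKL-Ab the lower Cldn4 level (log2 ratio −0.91) was −0.37 among cells with no Aire UMI.

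The ratio of Cldn3 to Cldn4 UMIs differed between classes. In WT-Control it was 0.779 in progenitor-gated cells, 0.831 in cTEC-gated cells and 0.930 in Aire-gated cells, but 2.73 in tuft-gated cells, 5.58 in cycling Ccl21a-low cells and 7.40 in ciliated-gated cells. Tuft-gated cells had ratios of 2.73, 4.58, 2.29 and 7.19 over the 4 libraries. Over 53 sums per class and library the log2 levels of both genes had a Pearson r of 0.82, which is a description of sums that share libraries and depth.

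**Figure D4:**
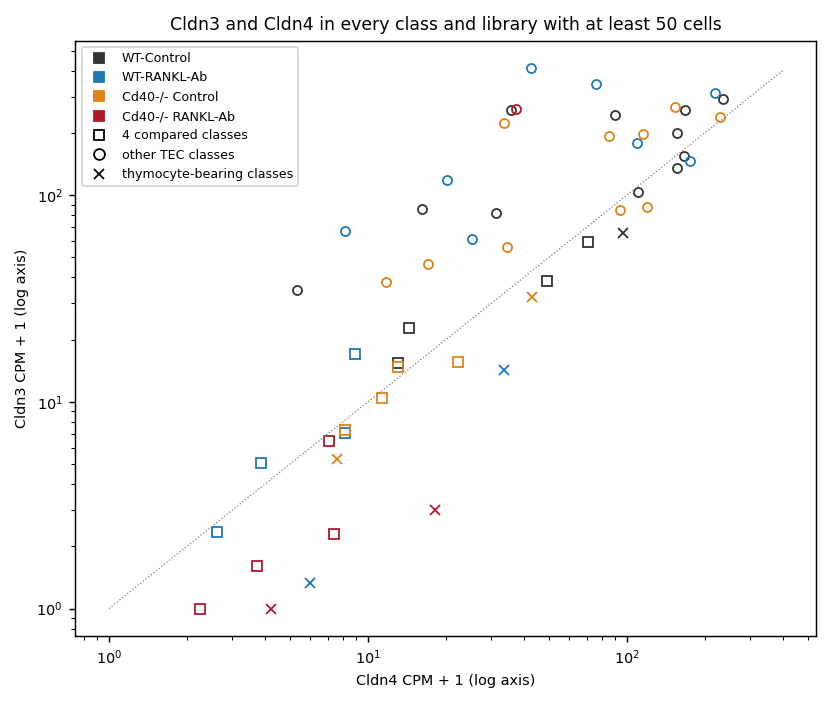
Cldn3 against Cldn4 (both CPM + 1, log axes), 1 point per class and library with at least 50 cells, coloured by library, with squares for the 4 compared classes, circles for other TEC classes, crosses for thymocyte-bearing classes and a dotted line of equal levels. The squares of Cd40-/- RANKL-Ab lie at the lower left (Cldn3 at most 5.47 CPM), those of progenitor-gated and cTEC-gated WT-Control cells lie further up (37.5 and 58.2 CPM), and the WT-Control thymocyte-gated cross lies above both (64.3 CPM).

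Of 15 other claudin and tight junction genes, 9 had enough UMIs in progenitor-gated cells of Cd40-/- RANKL-Ab, and 3 were past 1.5-fold higher and 1 lower, with a median log2 ratio of −0.06, beside 38.2% of all genes past 1.5-fold in either direction. Without Aire-UMI cells 1 was higher and 2 lower, with no share of all genes set beside this count. In cTEC-gated cells 4 of 11 were higher and 6 lower (median −1.01), in Ccl21a-high cells without Mgp/Gpx3 4 of 13 and 5 (−0.00), and in those with them 5 of 12 and 3 (0.45), beside 56.9%, 37.3% and 31.4% of all genes. Cldn7, a claudin of many simple epithelia, had 1 UMI in progenitor-gated cells of Cd40-/- RANKL-Ab against 273 in WT-Control (log2 ratio −8.84, −14.1 to −6.35). In WT-Control it was at 138 CPM there, or 45.2 CPM among cells with no Aire UMI. In Ccl21a-high cells without Mgp/Gpx3 WT-Control had Cldn7 at 53.0 CPM, and Cd40-/- RANKL-Ab at 3.04 CPM. Cldn1, a claudin of stratified epithelia, was on the other side, lower in WT-Control (17.7 CPM) than in Cd40-/- RANKL-Ab (51.9 CPM) in progenitor-gated cells (1.55, 1.02 to 2.12), but at 16.6 and 27.3 CPM below the Ccl21a cut. Ocln, the occludin gene, was lower in WT-Control (3.18 CPM) than in Cd40-/- RANKL-Ab (13.4 CPM) in Ccl21a-high cells without Mgp/Gpx3.

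RefSeq promoter windows (GRCm38.p6) were matched for 5 of the 10 genes, Plet1, Cldn3, Cldn4, Pdpn and Epcam. The 250 bases before the start site are printed for the claudin neighbours, whose levels were lower together, and for Pdpn, which was higher, in the direction of transcription. They lie at chr5:134985964-134986213 (plus strand), chr5:134946935-134947184 (minus strand) and chr4:143299565-143299814 (minus strand). Capitals mark matches to the AP-1 motif (TGANTCA, which reads the same class of words on both strands) and to the GC box (GGGCGG or its complement CCGCCC).
Cldn3: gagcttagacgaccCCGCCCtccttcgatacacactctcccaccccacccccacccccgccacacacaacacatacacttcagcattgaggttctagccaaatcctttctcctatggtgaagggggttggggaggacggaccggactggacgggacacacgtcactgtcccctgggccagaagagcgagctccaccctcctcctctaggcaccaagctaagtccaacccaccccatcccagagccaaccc
Cldn4: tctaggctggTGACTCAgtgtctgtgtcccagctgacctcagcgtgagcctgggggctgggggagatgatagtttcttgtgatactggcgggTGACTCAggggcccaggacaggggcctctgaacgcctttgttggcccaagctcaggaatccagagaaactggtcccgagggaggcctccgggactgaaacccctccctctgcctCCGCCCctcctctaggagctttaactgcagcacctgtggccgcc
Pdpn: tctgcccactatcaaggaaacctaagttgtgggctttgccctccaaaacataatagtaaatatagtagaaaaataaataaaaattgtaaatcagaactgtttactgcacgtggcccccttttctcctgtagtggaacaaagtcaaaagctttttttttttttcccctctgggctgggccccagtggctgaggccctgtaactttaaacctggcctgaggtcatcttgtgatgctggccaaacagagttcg
The Cldn4 window held AP-1 words that begin 240 and 158 bases before the start site and GC boxes at 44 and 5 bases before it, the last of which crosses the start. Cldn3 held a GC box 236 bases before it and no AP-1 word. Pdpn had no match before the start site and GC boxes that begin at bases 2 and 45 after it. Plet1 had an AP-1 word 144 bases and Epcam a GC box 58 bases before the start. None of the 5 windows held a GAS motif (TTCNNNGAA), an ISRE or an NF-kB motif. Over 32851 windows of the same length, both strands searched, 7.81% held an AP-1 word, 35.7% a GC box, 8.30% a GAS motif, 3.44% an ISRE and 4.51% an NF-kB motif, so such matches are a description of the letters only.

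Epcam (ENSMUSG00000045394, chr17:87635979-87651129, plus strand) encodes the adhesion molecule used to sort the cells. It was at 612, 520.2, 626 and 558 CPM in progenitor-gated cells, 416, 324, 307 and 282 CPM in cTEC-gated cells, 1038, 897, 1010.0 and 847 CPM in Ccl21a-high cells without Mgp/Gpx3 and 1001, 805, 963 and 775 CPM in those with them. It was not past 1.5-fold in any of the 12 comparisons. Its largest ratio was in cTEC-gated cells of Cd40-/- RANKL-Ab (log2 ratio −0.56, −0.68 to −0.45), which was past 1.5-fold with TMM factors. Of 5 pan-epithelial genes in progenitor-gated cells of Cd40-/- RANKL-Ab, 1 was past 1.5-fold lower and 0 higher, beside 38.2% of all genes past 1.5-fold. Their log2 ratios had a median of 0.12 and lay between −1.08 for Elf3 and 0.58 for Krt7. Krt7 was at 370.1 and 554 CPM and Elf3, an epithelial transcription factor, at 19.7 and 9.36 CPM in WT-Control and Cd40-/- RANKL-Ab. In Ccl21a-high cells without Mgp/Gpx3, Krt18 and Krt8 were the most different of the list, at 1657 against 2875 CPM and 1407 against 2295 CPM. Both keratins were higher in cTEC-gated cells of WT-Control, at 5058 and 3720 CPM. Psmb11, a cTEC gate gene, was at 4.77 against 129 CPM in the same Ccl21a-high cells. The part of cTEC RNA in the keratin levels was not tested.

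Pairs of the 10 genes were then sought in single cells thinned to 1000 UMIs. Ly6a and Itga6 were both found in 17.4% (interval 12.9% to 22.6%) of 253 progenitor-gated WT-Control cells and in 14.3%, 24.9% and 5.75% of those of the other libraries. The product of the shares of both genes, the value for genes detected independently, was 14.0%, 14.7%, 22.4% and 6.43%. Co-detection thus followed the shares of the single genes. In thymocyte-gated cells both were found in 3 of 99, 2 of 207, 3 of 279 and 0 of 184, the last of which allows a share of up to 1.63%. Cldn3 and Cldn4, the pair used to define mTEC stem cells, were both found in 1 of 253 progenitor-gated WT-Control cells (0.395%, 0.0100% to 2.18%). Both were also found in 2 of 99 thymocyte-gated cells (2.02%, 0.246% to 7.11%). The thymocyte gate can hold doublets, with Aire at 424 CPM in WT-Control, so it sets no background for this pair and no conclusion is drawn.

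Across the 53 sums, Itgb4 and Pdpn were the most alike of the 10 (r = 0.85), followed by Cldn3 with Cldn4 (0.82), Itga6 with Pdpn (0.76), and Itga6 with Itgb4 and Plet1 with Cd24a (both 0.70). The lowest values were those of Cldn4 and Cldn3 with Pdpn (−0.53 and −0.49). Among 13784 genes, those most like Ly6a were Gm4951 (0.89) and Ifi27l2a (0.85). For Pdpn they were Ehd2 (0.94) and Ccdc80 (0.93), for Itga6 Vcl (0.91) and Sh3d19 (0.89) and for Itgb4 Vwa1 (0.90) and Slc2a4 (0.89). For Cldn3 they were Cldn7 and Crb3 (both 0.95), for Cldn4 Skint9 and Mxd1 (both 0.94) and for Epcam Lsr (0.94) and Litaf (0.91). For Cd24a they were Fam221a (0.89) and Smim6 (0.86), for Sox9 Cyfip1 (0.91) and Eppk1 (0.89) and for Plet1 Fam46a (0.85) and Vmp1 (0.81). These values describe likeness over sums that share libraries, depth and cell classes. With 1 CPM added in place of 10, Ifi27l2a, Vmp1, Crb3 and Skint9 were no longer among the 2 genes most like Ly6a, Plet1, Cldn3 and Cldn4.

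Finally, 19 other stem and progenitor markers were counted beside the 10. In progenitor-gated cells of Cd40-/- RANKL-Ab 16 had enough UMIs, and 5 were past 1.5-fold higher and 2 lower, with a median log2 ratio of 0.31, beside 38.2% of all genes past 1.5-fold. Without Aire-UMI cells 4 were higher and 1 lower, and with cells past the Ccl21a cut left out as well 1 of 15 was higher and 2 lower. Shares of all genes were not set beside the counts with cells left out. The counts were 8 and 4 of 16 in cTEC-gated cells (median 0.55), 6 and 2 of 16 in Ccl21a-high cells without Mgp/Gpx3 (0.23) and 5 and 1 of 15 in those with them (0.10), beside 56.9%, 37.3% and 31.4% of all genes. Tnfrsf11a, which encodes RANK, was at 53.7 CPM in WT-Control against 16.9 CPM in Cd40-/- RANKL-Ab in progenitor-gated cells (−1.67, −2.16 to −1.19). Among cells with no Aire UMI Tnfrsf11a was at 17.5 and 16.9 CPM, so the difference was not seen there. Lgr4, a Wnt co-receptor, was at 27.3 and 75.5 CPM (1.47, 1.04 to 1.92), and at 34.1 and 75.7 CPM among cells with no Aire UMI. In Ccl21a-high cells without Mgp/Gpx3, Foxn1, the transcription factor of TEC identity, was at 34.7 and 92.4 CPM (1.42, 1.13 to 1.70), and Krt19, a keratin of early TEC progenitors, was at 17.5 and 40.1 CPM (1.20, 0.76 to 1.62). The cTEC gate genes Psmb11 and Prss16 were also higher there, at 4.77 against 129 CPM and 40.4 against 195 CPM. The part of cTEC RNA in the levels of this class was not tested.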

How the data were processed

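Single-cell RNA-seq of 4 mouse TEC libraries, 1 per condition, was analysed from the matrices of raw UMI counts as the authors deposited them. Per the file headers the matrices were written by Cell Ranger 5.0.1, and the submitters' processing notes name 5.1. The labels and the study's methods name different versions of the library kit. Cells needed 200 or more genes and no more than 25% mitochondrial UMIs, and doublets were not removed. Cells were gated by summed marker UMIs per 10000, with both gene rows named Ccl21a summed, and the cuts were set after the score distributions were seen. UMIs were summed per class and library and divided by the class total (CPM). With no replicates, no test between conditions was made, and mice pooled in a library cannot be told apart. Intervals for levels were exact Poisson, for ratios exact conditional binomial and for shares exact binomial (Clopper-Pearson), at 95%, and cover counting error only. Ratios to WT-Control were computed for all genes with 20 or more UMIs over the pair of libraries and called past 1.5-fold. The interval method was tested on simulated data.

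The 10 genes, the gene lists and the classes were chosen with earlier results of these data known. Named genes were the 10 members, the 2 genes most like each by Pearson r of log2(CPM + 10) among genes with at least 500 UMIs, and from each list the 2 genes with the largest absolute log2 ratio of Cd40-/- RANKL-Ab to WT-Control in progenitor-gated and in Ccl21a-high cells without Mgp/Gpx3, with at least 50 UMIs. Markers named in the checks of labels (Krt8, Pdgfra, Col3a1, Lum, Ccl21a, Aire and Cd40) were outside this rule. Cells were thinned to 1000 UMIs for shares. Strict thymocytes had at least 50 thymocyte UMIs per 10000. Alternatives were gate cuts multiplied by 0.5 and 2, a mitochondrial limit of 13%, at least 2000 UMIs per cell, the top 5% of cells left out, a denominator without Ccl21a and mitochondrial genes, TMM factors (edgeR 4.0.16 with R 4.3.3), means over cells, 10 CPM added and a minimum of 100 UMIs. Leaving out cells with an Aire UMI, progenitor-gated cells at or past the Ccl21a cut or both, leaving out shared barcodes and the strict thymocytes were added after seeing the data. Analyses used Python 3.11.15, numpy 2.4.6, scipy 1.17.1 and pandas 2.3.3.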

Additional observations from a re-analysis of the deposited data

How the results depend on the processing

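Of 158 alternatives for counts and shares, 141 gave the same result within 1.5 times (for the share, within its interval) and 17 did not. They covered the counts of genes past 1.5-fold, the share of cells with both Ly6a and Itga6 and the genes named as most alike. The number of the 10 genes higher in progenitor-gated than in cTEC-gated cells of WT-Control was covered too. Of 594 alternatives for single ratios of Cd40-/- RANKL-Ab and levels in WT-Control, 482 moved by less than the counting interval and 112 by more, and no ratio past 1.5-fold changed sign. In Cd40-/- Control the log2 ratio of Cldn4 in progenitor-gated cells, −1.18, was 0.45 with gate cuts multiplied by 2, and that of Itgb4 in cTEC-gated cells of WT-RANKL-Ab, 0.67, was −0.03 with those cuts and −0.06 without cells that held an Aire UMI. With gate cuts multiplied by 0.5 the count in progenitor-gated cells of WT-RANKL-Ab was 3, and with cuts multiplied by 2 the counts were 5 in progenitor-gated and 5 in cTEC-gated cells of Cd40-/- RANKL-Ab and 1 in Ccl21a-high cells without Mgp/Gpx3 of WT-RANKL-Ab. With 10 CPM added to both sides they were 3 in progenitor-gated cells and 0 in Ccl21a-high cells without Mgp/Gpx3 of WT-RANKL-Ab, and 1 and 2 in Ccl21a-high cells without and with Mgp/Gpx3 of Cd40-/- Control. Without cells that held an Aire UMI they were 3 in cTEC-gated cells and 0 in Ccl21a-high cells without Mgp/Gpx3 of WT-RANKL-Ab, 2 in Ccl21a-high cells with Mgp/Gpx3 of Cd40-/- Control and 5 in progenitor-gated cells of Cd40-/- RANKL-Ab, where it was also 5 among those below the Ccl21a cut and without an Aire UMI. In Ccl21a-high cells without Mgp/Gpx3 of WT-RANKL-Ab the count was also 1 without the top 5% of cells, 1 with TMM factors and 0 with means over cells. Thinned to 2000 UMIs, 29.7% of progenitor-gated WT-Control cells held both Ly6a and Itga6. The cause of these shifts was not tested, and the shares of all genes past 1.5-fold in these settings were not set beside the counts. In Cd40-/- RANKL-Ab the calls of Ly6a, Cldn3 and Pdpn held in all 4 classes under every alternative that could be computed. No paired analysis was possible because each condition has 1 library and the labels give no replicate numbers. Depth limits Plet1 and both claudins outside WT-Control, which rest on few UMIs.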
